A study of Mus musculus with 12 samples.

Results

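The semaphorin, ephrin, slit and netrin guidance genes were examined in RNA-seq of mouse mesangial cells (MMC), the contractile cells that support the capillary loops of the kidney glomerulus. Members were chosen by gene symbol alone, as every counted gene named as a semaphorin of classes 3 to 7, a plexin, an ephrin, an Eph receptor, a slit, a robo, a netrin or an Unc5 receptor. The names matched 67 of the 25230 genes listed. They were 20 semaphorins, 9 plexins, 8 ephrins, 14 Eph receptors, 3 slits, 4 robos, 4 netrins, 4 Unc5 receptors and 1 antisense transcript, Plxna4os1, which was matched through its shared symbol.

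Guidance ligands were first studied as cues that attract or repel growing axons, and the same ligands and receptors act on the cytoskeleton and adhesion of many other cells, including those of the kidney. Secreted class 3 semaphorins bind neuropilins, which signal through plexin A and plexin D co-receptors, whereas most membrane-bound semaphorins bind plexins directly. Ephrins are tethered to the cell surface and signal through Eph receptor tyrosine kinases on the touching cell, netrins bind Dcc, neogenin and Unc5 receptors, and slits bind robo receptors.

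MMC were grown from pooled glomeruli of wild-type (WT) mice and of the lncMGC-KO5 line (KO). KO mice were homozygous, made in C57BL/6J, for a small Cas9 deletion next to the transcription start site of lncMGC, the long non-coding host RNA of the miR-379 cluster. Serum-depleted cells (SD) of both genotypes were compared with cells given TGF-β (10 ng/ml, 24 h), with 3 libraries in each of the 4 groups, written as WT-SD, KO-SD, WT-TGF and KO-TGF. KO cells were of 1 mouse line, and lncMGC itself is not among the counted genes. Rian and Mirg, with which it shares exons according to the paper, were not examined here, so the knockout was not checked. The study calls the 3 libraries of a group independent samples. Whether these were separate cultures or animals is not given in the sources used here, so p-values measure only the spread between these libraries, which may be technical.

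Depth was between 19898050 and 22827706 counts on genes per library, and 3 counts, taken as the floor of detection, corresponded to 0.131 to 0.151 CPM (counts scaled to the size of the library). Of 10 mesangial and smooth muscle markers, between 6 (KO-TGF) and 9 (WT-SD) had a group mean over 1 CPM. Pdgfrb had group means of 288 to 384 CPM and Acta2 of 1567 to 6288 CPM, whereas Itga8 had 0.638 to 3.05 CPM and Thy1 was at 0 in both SD groups. Genes of this list differed between genotypes in both directions. Acta2 and Tagln had 1567 and 714 CPM in WT-SD against 3249 and 1319 in KO-SD, and 2930 and 2363 in WT-TGF against 6288 and 3915 in KO-TGF. Des and Serpine2 had 7.67 and 277 CPM in WT-SD against 0.529 and 83.9 in KO-SD, and 5.62 and 193 in WT-TGF against 0.2475 and 44.35 in KO-TGF. In bulk RNA, fewer cells of a type and less RNA per cell cannot be told apart. The summed macrophage markers (10 genes) were 35.7 to 39.5 CPM in WT-SD, 19.7 to 23.4 in WT-TGF, 8.18 to 9.77 in KO-SD and 2.35 to 2.84 in KO-TGF, and Adgre1 was at 0 in every KO library. The 8 podocyte markers summed to 469 to 477 CPM in WT-SD and 463 to 481 in WT-TGF, against 219 to 227 in KO-SD and 205 to 220 in KO-TGF, with the defining gene Nphs1 at or near 0 in all groups. The 10 endothelial markers summed to 53.3 to 55 CPM in WT-SD, 65.3 to 70.1 in WT-TGF, 29.7 to 32 in KO-SD and 23.8 to 25.1 in KO-TGF, with Cdh5, Tie1 and Emcn at 0 in both TGF groups. The 8 tubular markers summed to 72.7 to 78.7 CPM in WT-SD, 19.1 to 20.6 in WT-TGF, 19.2 to 22.2 in KO-SD and 4.33 to 4.57 in KO-TGF, with Slc34a1 and Umod at 0 throughout. The 8 neuronal and Schwann cell markers summed to 13.4 to 15.8 CPM in WT-SD, 73.3 to 75.2 in WT-TGF, 18.9 to 22 in KO-SD and 92.9 to 101 in KO-TGF, mostly Tubb3, with Snap25 at 0. These lists move with genotype or with TGF-β as the guidance genes do, and their part in the results was not tested.

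Of the 67 members, 41 passed the expression filter (RPKM, the CPM per kilobase of exon, over 1 in at least 1 library) and were tested. They were 14 semaphorins, 7 plexins, 7 ephrins, 6 Eph receptors, 2 netrins, 2 Unc5 receptors, 1 slit and 2 robos. Per exon length, the most abundant members were the plexins Plxnb2, with a mean of 100 RPKM over the 4 groups, and Plxna1, with 82.5 RPKM. Next came the ephrin Efnb2 (58.1 RPKM), the netrin Ntn1 (48.9 RPKM), the netrin receptor Unc5b (46.4 RPKM) and the netrin Ntn4 (34.7 RPKM). Epha4 (30.8 RPKM) was the most abundant Eph receptor and Sema3c (27.3 RPKM) the most abundant semaphorin, while Robo1 (9.21 RPKM) and Slit2 (6.46 RPKM) led their families. Among the 41 tested members, the ratio between the highest and lowest group was widest for Sema3d, whose group means ran from 34.9 RPKM in WT-SD to 2.08 in KO-TGF, and for Sema3g, from 4.96 in WT-TGF to 0.305 in KO-TGF.

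**Figure D1:**
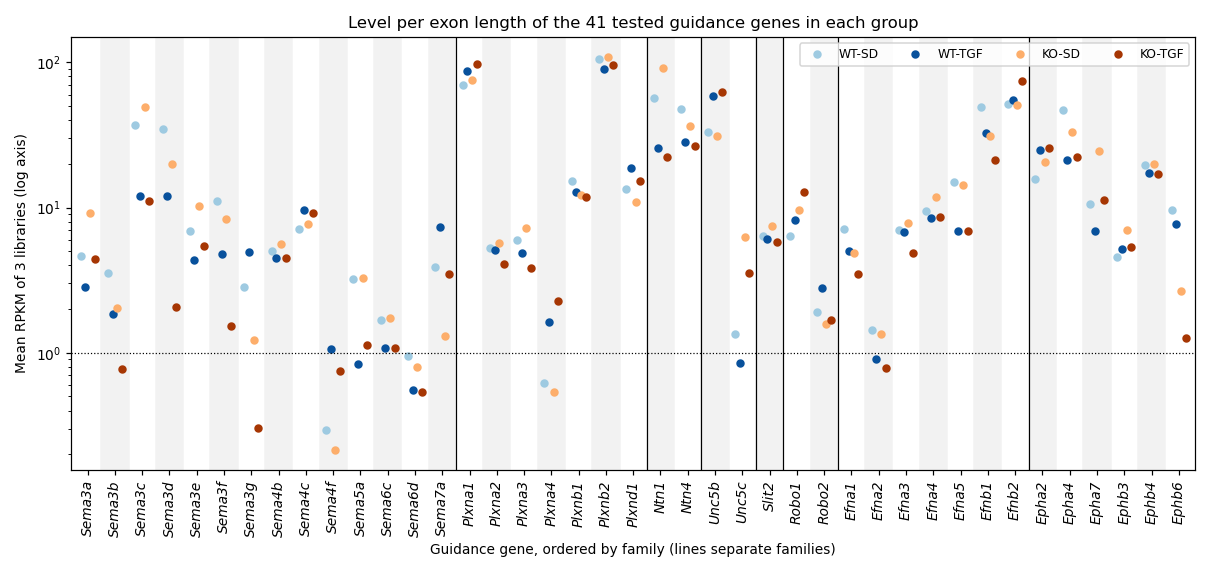
Mean RPKM of 3 libraries (log axis) for each of the 41 tested guidance genes, grouped by family, with 1 point per group and a dotted line at 1 RPKM. Plxnb2 and Plxna1 lie between 70 and 109 RPKM in all 4 groups, whereas Sema3d and Sema3g drop to 2.08 and 0.305 RPKM in KO-TGF.

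The TGF-β response of WT cells was mostly a decrease of guidance ligands with a mixed change of their receptors. With TGF-β, 13 tested members rose and 25 fell in WT cells (edgeR quasi-likelihood test, FDR <5%), beside 36% and 36.4% of all 11529 genes tested. With a fold change over 2, 2 members rose and 7 fell, beside 4.14% and 5.78% of all genes. Members had a median log2 fold change of -0.25, and that of all genes tested was 0. Of 24 ligands, 5 rose and 17 fell, with a median of -0.64, and of 17 receptors, 8 rose and 8 fell, with a median of -0.05.

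In KO cells, 10 members rose and 29 fell, beside 34.9% and 39.1% of all genes, and with a fold change over 2, 4 rose and 11 fell, beside 4.37% and 9.15%. Their median was -0.48, against -0.03 for all genes. Of 24 ligands, 4 rose and 20 fell, with a median of -0.69, and of 17 receptors, 6 rose and 9 fell, with a median of -0.18. Both responses were called in the same direction for 34 members, of which 10 rose in both genotypes (Efnb2, Epha2, Plxna1, Plxna4, Plxnd1, Robo1, Sema4c, Sema4f, Sema7a and Unc5b) and 24 fell in both, beside 30.1% and 31.9% of all genes. Scaling by library size alone turned the rise of Efnb2 in WT to -0.06. Sema3g and Ephb3 were the tested members called in opposite directions, higher in WT and lower in KO, beside 0.885% of all genes, and for Ephb3 the WT call was lost with scaling by library size alone.

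**Figure D2:**
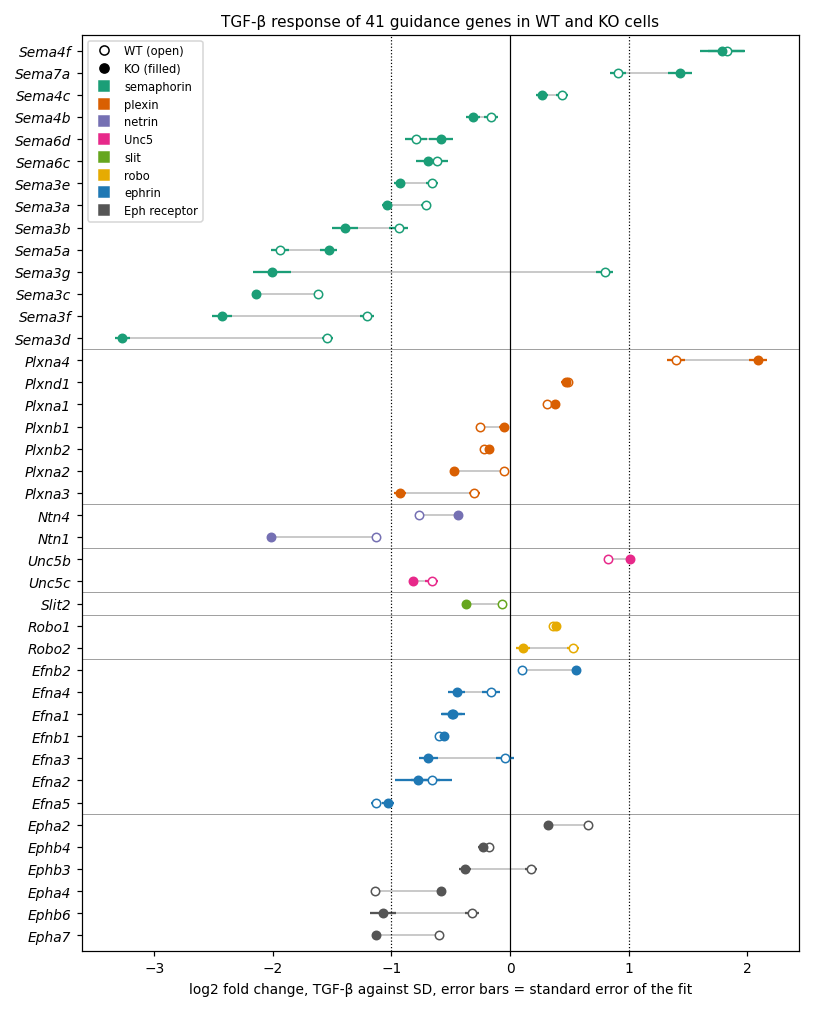
Log2 fold change of TGF-β against SD for the 41 tested guidance genes in WT (open points) and KO cells (filled points), with standard errors of the fit and dotted lines at a fold change of 2. The widest gaps between genotypes are those of Sema3g (0.80 in WT and -2.01 in KO) and Sema3d (-1.54 and -3.27).

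The interaction (response of KO minus response of WT) was called for 26 members, 8 of them higher and 18 lower in KO, beside 8.67% and 16.6% of all genes. The lowest values were those of 3 secreted semaphorins, Sema3g (-2.81), Sema3d (-1.73) and Sema3f (-1.22), followed by Ntn1 (-0.89) and Ephb6 (-0.74). The highest was that of Plxna4 (0.69), followed by Epha4 (0.56), whose decrease with TGF-β was smaller in KO, and Sema7a (0.51).

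Between genotypes, KO-SD and WT-SD differed in 30 members, with 15 higher and 15 lower in KO, beside 30.9% and 25.2% of all genes. With a fold change over 2, 2 were higher and 3 lower, beside 3.2% and 3.24%. Library size alone as the scaling in place of TMM (trimmed mean of M values) gave 12 higher and 19 lower. Over all 11529 genes it gave 2444 higher and 4192 lower. In TGF-β, 12 members were higher and 19 lower in KO, beside 27.2% and 27.8% of all genes. Library size alone gave 8 and 22 members there, beside 1643 and 5409 of the 11529 genes. With a fold change over 2, only Unc5c was higher, beside 1.38% of all genes, and 6 members were lower, beside 4.68%. Scaling by library size alone shifted the median of all genes to -0.16 in the TGF-β response of WT, -0.23 in that of KO, -0.06 in the SD comparison and -0.13 in the TGF-β comparison. A TGF-β response and a genotype comparison share libraries, so their values for a member are only set side by side.

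Across the genotype comparisons, 6 members were higher in KO in both conditions (Epha7, Plxna1, Robo1, Sema3a, Sema3e and Unc5c) and 12 were lower in both (Efna1, Efnb1, Ephb6, Ntn4, Plxnb1, Plxnd1, Robo2, Sema3b, Sema3d, Sema3f, Sema3g and Sema7a), beside 19.8% and 18.3% of all genes. Another 5 were higher in KO in SD and lower in TGF-β (Ntn1, Plxna2, Plxna3, Sema3c and Slit2), beside 1.69% of all genes. The reverse held for Epha4 and Unc5b, beside 0.989% of all genes, and their TGF-β values of 0.07 and 0.08 turned to -0.05 and -0.04 with scaling by library size alone. The TGF-β call of Epha4 was also lost without any one WT-TGF replicate (adjusted p 0.054 to 0.0801), and that of Unc5b without WT-TGF replicate 2 (adjusted p = 0.0563). Of the other members named here, the TGF-β calls of Ntn4, Plxna1, Plxnb1, Sema3c and Slit2 and the SD calls of Plxna1 and Plxna2 did not hold in every alternative fit.

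**Figure D3:**
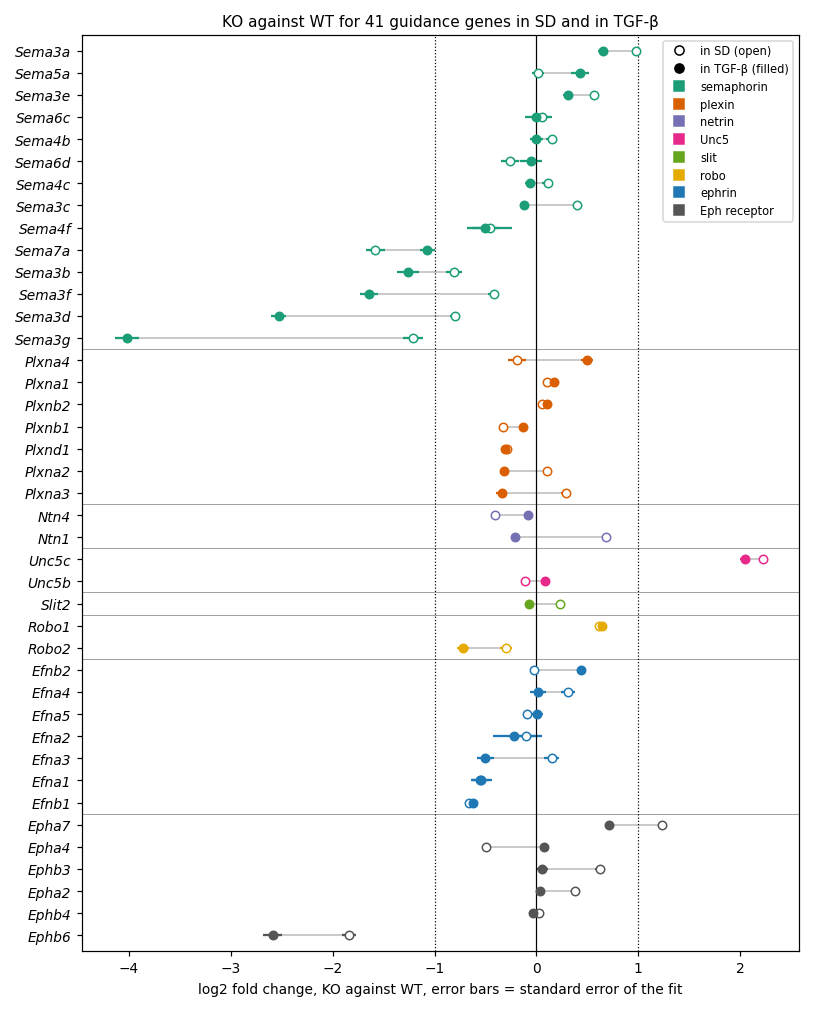
Log2 fold change of KO against WT for the 41 tested guidance genes in SD (open points) and in TGF-β (filled points), with standard errors of the fit and dotted lines at a fold change of 2. Unc5c lies highest in both conditions (2.22 and 2.05), and Sema3g lies lowest in TGF-β (-4.02).

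Class 3 semaphorins are secreted ligands, several of which repel axons or endothelial cells, and all 7 genes of the class were tested. In WT cells 6 of them fell with TGF-β, beside 36.4% of all genes, and Sema3g rose, beside 36%. In KO cells all 7 fell, beside 39.1%, and 6 of them fell more than 2-fold, beside 9.15%. Their median log2 fold change was -0.94 in WT and -2.01 in KO. Their summed level was 777 to 787 CPM in WT-SD and 317 to 333 in WT-TGF, and 772 to 846 in KO-SD and 214 to 226 in KO-TGF. The sums of the SD groups overlapped, and those of the TGF groups did not. The interaction was lower in KO for 7 of 7, beside 16.6% of all genes. That of Sema3b (-0.45) was lost in DESeq2 (adjusted p = 0.0678) and without KO-TGF replicate 1 (0.0677) or 2 (0.0561).

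Sema3g, which signals through neuropilin 2, had 12.4, 12.7 and 13.8 CPM in WT-SD and 22.6, 23.5 and 21.4 CPM in WT-TGF. In KO cells it had 4.92, 6.52 and 5.37 CPM in SD and 1.55, 1.28 and 1.31 CPM in TGF-β. The 4 groups did not overlap, and TGF-β moved the gene up in WT and down in KO. Its log2 fold change with TGF-β was 0.80 ± 0.0726 (SE) in WT (edgeR adjusted p = 3.22e-11) and -2.01 ± 0.162 in KO (edgeR adjusted p = 1.86e-12). The difference of the responses was -2.81 ± 0.176 (edgeR adjusted p = 1.02e-13). KO-TGF cells held 0.0616 of the WT-TGF level (log2 fold change -4.02 ± 0.121), the lowest ratio among the tested members in this comparison, and KO-SD cells 0.432 of the WT-SD level (-1.21 ± 0.0948).

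Sema3d, a ligand with known roles in vessel and heart development, had 309, 296 and 296 CPM in WT-SD and 103, 98.8 and 107 CPM in WT-TGF. In KO it had 193, 166 and 158 CPM in SD and 20.4, 16.4 and 16.8 CPM in TGF-β. It was lower in every KO library than in any WT library of the same treatment. The TGF-β response was -1.54 ± 0.0481 in WT and -3.27 ± 0.0666 in KO, and the interaction was -1.73 ± 0.0864 (edgeR adjusted p = 5.02e-16). KO cells held 0.575 of the WT level in SD (-0.80 ± 0.0456) and 0.173 in TGF-β (-2.53 ± 0.0703).

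Sema3f, another neuropilin 2 ligand, had 53.9, 59.5 and 59.6 CPM in WT-SD and 23.3, 26 and 25.3 CPM in WT-TGF, and 40.8, 41.8 and 46.8 CPM in KO-SD and 6.64, 8.29 and 8.99 CPM in KO-TGF. It followed the order of Sema3d, with WT-SD highest and KO-TGF lowest. Its response was -1.21 ± 0.0596 in WT and -2.43 ± 0.0805 in KO, with an interaction of -1.22 ± 0.106 (edgeR adjusted p = 1.62e-10). Sema3b, whose gene lies near that of Sema3f on chromosome 9, had 16 to 18.1 CPM in WT-SD, 8.25 to 9.32 in WT-TGF, 9.31 to 10.2 in KO-SD and 3.54 to 3.89 in KO-TGF. It was lower in KO than in WT by the same comparisons (-0.81 ± 0.0759 in SD and -1.26 ± 0.11 in TGF-β).

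Sema3c, the most abundant semaphorin, had 257, 265 and 272 CPM in WT-SD and 85.9, 84.2 and 88.3 CPM in WT-TGF, and 368, 328 and 352 CPM in KO-SD and 83, 80.1 and 75.2 CPM in KO-TGF. It started higher in KO (0.40 ± 0.0332) and ended slightly lower (-0.12 ± 0.0419, edgeR adjusted p = 0.0196), a call that was lost in DESeq2 (adjusted p = 0.0596) and without KO-TGF replicate 2 or 3 or WT-TGF replicate 3. Its response was -1.62 ± 0.0372 in WT and -2.14 ± 0.0379 in KO. Sema3a, the founding axon repellent of the class, was higher in KO in both conditions, with 63.3 to 65.5 CPM in WT-SD against 123 to 131 in KO-SD (0.98 ± 0.0378), and 37.7 to 41.5 in WT-TGF against 59.3 to 64 in KO-TGF (0.65 ± 0.0444). Sema3e, which can bind plexin D1 without a neuropilin, was likewise higher in KO (0.57 ± 0.0448 in SD and 0.31 ± 0.0529 in TGF-β). Sema3d, Sema3a, Sema3e and Sema3c lie on chromosome 5 between positions 12383161 and 17730268 of GRCm38, so neighbours there differed from WT in different directions.

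**Figure D4:**
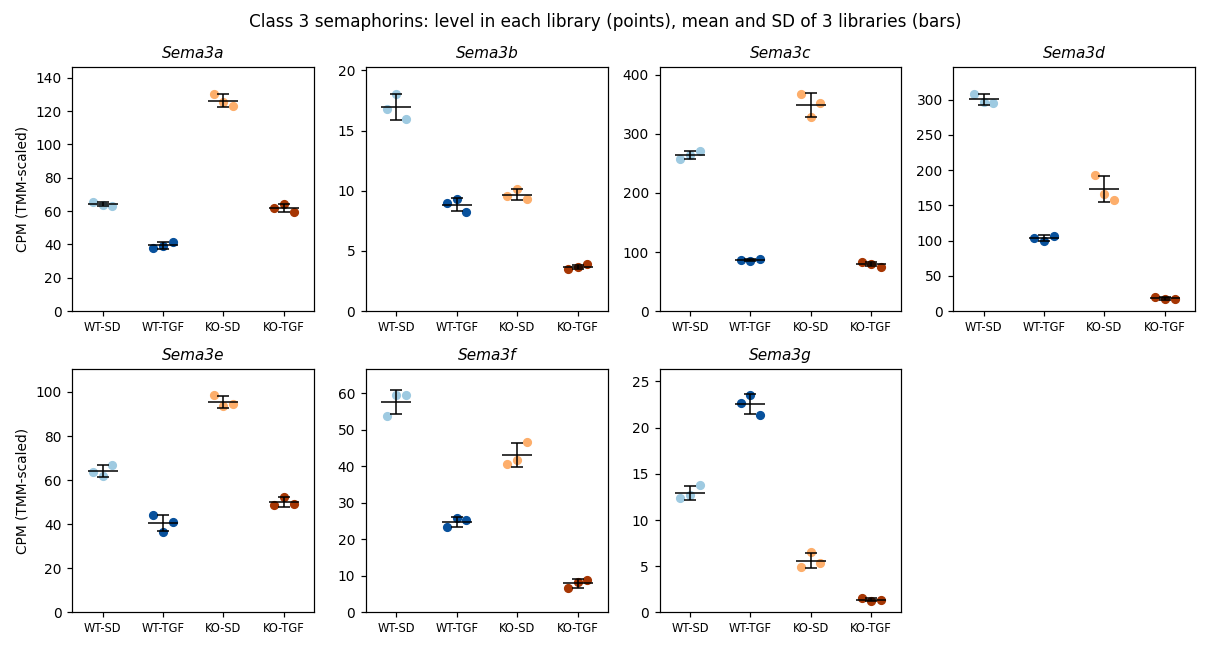
CPM of the 7 class 3 semaphorins in each of the 12 libraries (points), with the mean and SD of 3 libraries (bars) and a separate axis from 0 for each gene. Sema3g is the gene whose WT-TGF libraries (21.4 to 23.5 CPM) lie above all others, and Sema3d falls to 16.4 to 20.4 CPM in KO-TGF.

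Promoter windows from 250 bases before to 50 bases after the start site were taken from RefSeq (GRCm38.p6), which held 57 of the members. The SMAD-binding site CAGAC, read on either strand, was present for 36 of the 57 genes, beside 53.2% of all 27025 genes with a window. The AP-1 site TGANTCA was present for 3 of 57, beside 8.97%, and the E-box CANNTG for 32 of 57, beside 75%. Both strands were read for each motif, and none of the 3 motifs contains another. The windows of 3 class 3 semaphorins and of Sema4f, the semaphorin with the highest TGF-β response, are shown with SMAD-binding sites in capitals. Matches describe the letters only.
Sema3d promoter, chr5:12382916-12383215 (plus strand): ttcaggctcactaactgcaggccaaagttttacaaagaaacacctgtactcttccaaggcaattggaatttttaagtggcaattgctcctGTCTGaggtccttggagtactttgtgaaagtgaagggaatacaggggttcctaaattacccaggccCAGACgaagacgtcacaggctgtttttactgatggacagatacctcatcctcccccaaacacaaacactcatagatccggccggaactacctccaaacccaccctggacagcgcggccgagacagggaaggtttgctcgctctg
Sema3g promoter, chr14:31217623-31217922 (plus strand): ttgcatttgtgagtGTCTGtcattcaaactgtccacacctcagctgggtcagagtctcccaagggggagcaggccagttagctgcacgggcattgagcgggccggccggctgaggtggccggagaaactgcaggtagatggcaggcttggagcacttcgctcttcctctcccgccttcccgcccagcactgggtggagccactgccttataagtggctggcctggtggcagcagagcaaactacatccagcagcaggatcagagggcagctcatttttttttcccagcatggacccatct
Sema3c promoter, chr5:17574566-17574865 (plus strand): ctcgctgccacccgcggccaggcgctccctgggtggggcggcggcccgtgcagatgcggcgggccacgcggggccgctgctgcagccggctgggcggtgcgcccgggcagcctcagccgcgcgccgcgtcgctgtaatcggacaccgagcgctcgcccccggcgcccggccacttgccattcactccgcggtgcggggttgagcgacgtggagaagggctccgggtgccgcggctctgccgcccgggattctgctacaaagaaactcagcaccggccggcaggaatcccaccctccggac
Sema4f promoter, chr6:82939720-82940019 (minus strand): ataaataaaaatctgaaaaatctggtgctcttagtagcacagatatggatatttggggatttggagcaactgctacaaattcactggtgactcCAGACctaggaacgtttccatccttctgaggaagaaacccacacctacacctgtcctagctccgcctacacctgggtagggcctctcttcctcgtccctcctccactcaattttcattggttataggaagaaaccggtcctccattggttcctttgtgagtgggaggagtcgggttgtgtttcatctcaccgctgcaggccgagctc

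The windows of Sema3d and Sema3g, with opposite responses in WT cells, held 2 and 1 of these sites. That of Sema3c, which fell in both genotypes, held 0, and that of Sema4f, which rose in both, held 1.

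Among the 7 tested semaphorins of classes 4 to 7, which are membrane-bound or anchored, 3 rose and 4 fell with TGF-β in each genotype. Of all genes, 36% rose and 36.4% fell in WT, and 34.9% and 39.1% in KO. Sema4f had 1.46, 1.65 and 1.59 CPM in WT-SD and 5.86, 5.26 and 5.68 CPM in WT-TGF, and 0.965, 1.01 and 1.42 CPM in KO-SD and 3.86, 3.42 and 4.57 CPM in KO-TGF. It was the tested member that rose most in WT (1.83 ± 0.156, edgeR adjusted p = 7.43e-12), with a near-equal value in KO (1.79 ± 0.186) and an interaction of -0.04 ± 0.271 that was not called. Sema4f passed the expression filter only through its highest group, WT-TGF (1.06 RPKM), so its place among the tested members depends on that rise. Its other groups had 0.296 (WT-SD), 0.214 (KO-SD) and 0.747 RPKM (KO-TGF). Slit1, under the filter, had 1.97 ± 0.345 in WT in the fit of all genes with counts. Sema7a, a GPI-anchored semaphorin that binds plexin C1 and integrins, had 12.8 to 12.9 CPM in WT-SD, 23.1 to 25.1 in WT-TGF, 3.58 to 4.78 in KO-SD and 11 to 12.4 in KO-TGF. It rose in WT (0.91 ± 0.0685) and more in KO (1.43 ± 0.101), where it nevertheless stayed below WT in SD (-1.58 ± 0.0964) and in TGF-β (-1.07 ± 0.0726). Sema5a, which carries thrombospondin repeats, had 57.7 to 62.6 CPM in WT-SD and 56.9 to 68 in KO-SD, which overlapped (0.02 ± 0.0588, edgeR adjusted p = 0.751). It fell to 15.5 to 15.9 CPM in WT-TGF (-1.94 ± 0.0739) and 17.2 to 23.4 in KO-TGF (-1.53 ± 0.0718). Sema4c rose in both genotypes (0.44 ± 0.0493 in WT and 0.27 ± 0.0503 in KO), the latter call being lost with scaling by library size alone (adjusted p = 0.252). Sema6c and Sema6d fell in both, by 0.62 and 0.79 on the log2 scale in WT and by 0.69 and 0.58 in KO.

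Plexins are the semaphorin receptors. Of 7 tested, 3 rose and 3 fell with TGF-β in each genotype (all genes 36% and 36.4% in WT, 34.9% and 39.1% in KO). Plxna4 had the largest change among them, with 8.69, 8.76 and 8.56 CPM in WT-SD, 21.8, 21.5 and 25.6 in WT-TGF, 7.76, 7.77 and 7.29 in KO-SD and 31.2, 32.6 and 33.2 in KO-TGF. This receptor of the class 3 semaphorin complex rose by 1.40 ± 0.0746 in WT and 2.09 ± 0.0741 in KO, with an interaction of 0.69 ± 0.111 (edgeR adjusted p = 1.43e-05). Plxna4 passed the expression filter only through its TGF groups, with 1.63 RPKM in WT-TGF and 2.29 in KO-TGF, against 0.615 in WT-SD and 0.54 in KO-SD. Its groups did not overlap in SD either, where the difference was -0.19 ± 0.0925 and not called (edgeR adjusted p = 0.0848), but was called with scaling by library size alone (-0.26, adjusted p = 0.0152). Plxna1 rose in both genotypes (0.31 ± 0.0239 and 0.38 ± 0.0239), as did Plxnd1, the Sema3e receptor (0.49 ± 0.0345 and 0.47 ± 0.0365). Plxna3 fell by 0.30 in WT and by 0.93 in KO, and Plxna2 fell by 0.47 in KO. The value of Plxna2 in WT was -0.05 and not called, but it was called lower with scaling by library size alone (-0.21, adjusted p = 1.75e-05). Plxnb2, the most abundant member, fell by 0.22 in WT and by 0.18 in KO.

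The neuropilins, the ligand-binding co-receptors of the class 3 semaphorins, are not part of the list and were read beside it. Nrp2 had 115, 115 and 120 CPM in WT-SD and 371, 358 and 365 in KO-SD, and 63.8, 66.3 and 68.6 in WT-TGF and 241, 246 and 237 in KO-TGF. It was 3.13 times higher in KO in SD and 3.65 times in TGF-β (log2 fold change 1.65 ± 0.0286 and 1.87 ± 0.0314), and the groups did not overlap. Of the class 3 semaphorins, Sema3b, Sema3d, Sema3f and Sema3g were lower in KO in both conditions, and Sema3a and Sema3e were higher in both. Sema3c was higher in KO in SD (0.40 ± 0.0332) and slightly lower in TGF-β (-0.12 ± 0.0419), a call that did not hold in every alternative fit. A link between Nrp2 and these ligands was not tested. Nrp1, named after its values were seen, was at 785 to 800 CPM in WT-SD and 801 to 837 in WT-TGF (0.04 ± 0.0227, not called), and at 739 to 767 in KO-SD and 525 to 531 in KO-TGF (-0.51 ± 0.0231). Its value in WT turned to -0.12 with scaling by library size alone, and was called higher with the filter of CPM >1 in at least 3 libraries (0.05, adjusted p = 0.0323) and without a filter (0.07, adjusted p = 0.00816).

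Netrins are laminin-related secreted ligands. Both tested genes fell with TGF-β in both genotypes, beside 36.4% of all genes in WT and 39.1% in KO. Ntn1 had 353, 345 and 367 CPM in WT-SD and 161, 164 and 162 in WT-TGF, and 572, 575 and 565 in KO-SD and 141, 139 and 141 in KO-TGF. The KO libraries were above WT in SD and below WT in TGF-β, without overlap. Its response was -1.13 ± 0.0263 in WT and -2.02 ± 0.0268 in KO, and the interaction was -0.89 ± 0.0374 (edgeR adjusted p = 6.99e-18). Ntn4, a netrin of basement membranes, fell less in KO than in WT, with 178 to 180 CPM in WT-SD and 104 to 107 in WT-TGF (-0.77 ± 0.0303), and 133 to 137 in KO-SD and 94.8 to 103 in KO-TGF (-0.44 ± 0.0317). Its interaction was 0.33 ± 0.0439.

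Unc5c, a netrin receptor of the repulsive type, was the tested member with the highest value in KO against WT. It had 26.2, 25.9 and 25.7 CPM in WT-SD, 16.7, 16.3 and 16.1 in WT-TGF, 124, 120 and 118 in KO-SD and 69.1, 69.5 and 65.4 in KO-TGF. Every KO library was above every WT library, 4.65 times in SD and 4.15 times in TGF-β by the fit (2.22 ± 0.0394, edgeR adjusted p = 1.96e-28, and 2.05 ± 0.0467, edgeR adjusted p = 9.18e-26). TGF-β lowered it in both genotypes (-0.66 ± 0.0533 and -0.82 ± 0.035), and the interaction of -0.16 ± 0.0645 was not called (edgeR adjusted p = 0.0611) but was called with scaling by library size alone (-0.21, adjusted p = 0.0138) and without KO-SD replicate 3 (-0.18, adjusted p = 0.0459). Unc5b, the abundant Unc5 receptor, rose instead, from 207 to 211 CPM in WT-SD to 364 to 373 in WT-TGF (0.83 ± 0.0279), and from 184 to 200 in KO-SD to 383 to 396 in KO-TGF (1.01 ± 0.0282). Of the other netrin receptors, neogenin (Neo1) was higher in KO (0.42 ± 0.0294 in SD and 0.33 ± 0.0303 in TGF-β), and Dcc stayed at or under 0.364 CPM in every library. Both were named after their values were seen.

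Slits are large secreted proteins that act on robo receptors. Slit2, the abundant slit, had 161 to 168 CPM in WT-SD, 153 to 157 in WT-TGF, 189 to 195 in KO-SD and 143 to 151 in KO-TGF. Its decrease with TGF-β was -0.07 ± 0.028 in WT, a call lost when genes of low expression were not filtered (-0.04, adjusted p = 0.258) and without WT-SD replicate 3 (adjusted p = 0.137) or WT-TGF replicate 3 (0.0776), and -0.37 ± 0.0282 in KO, with an interaction of -0.30 ± 0.0398. Robo1 was higher in KO in both conditions, at 104 to 107 CPM in WT-SD against 155 to 163 in KO-SD (0.61 ± 0.0293) and 133 to 136 in WT-TGF against 204 to 214 in KO-TGF (0.64 ± 0.0284). Robo2 was lower in KO, at 32 to 33.8 CPM in WT-SD against 24.5 to 27.9 in KO-SD (-0.30 ± 0.0575) and 43.3 to 49.8 in WT-TGF against 28.1 to 29.8 in KO-TGF (-0.72 ± 0.0554). It rose with TGF-β in WT (0.53 ± 0.0525), and its value in KO was 0.11 ± 0.0606, which was not called (edgeR adjusted p = 0.0976). That value turned to -0.09 when scaled by library size alone, and was called higher without KO-SD replicate 1 (0.15, adjusted p = 0.0396).

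Slit3 was under the expression filter and is given as counts. It had 2, 5 and 6 counts in WT-SD, 3, 1 and 1 in WT-TGF, 49, 53 and 68 in KO-SD and 35, 27 and 27 in KO-TGF. The WT-TGF libraries were at or under the floor of 3 counts, and all KO libraries were above all WT libraries. The ratio of KO to WT was 13.6 in SD (95% interval of the pooled counts 7.76 to 26.1) and 20.1 in TGF-β (8.32 to 63.6), intervals that cover counting error only.

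**Figure D5:**
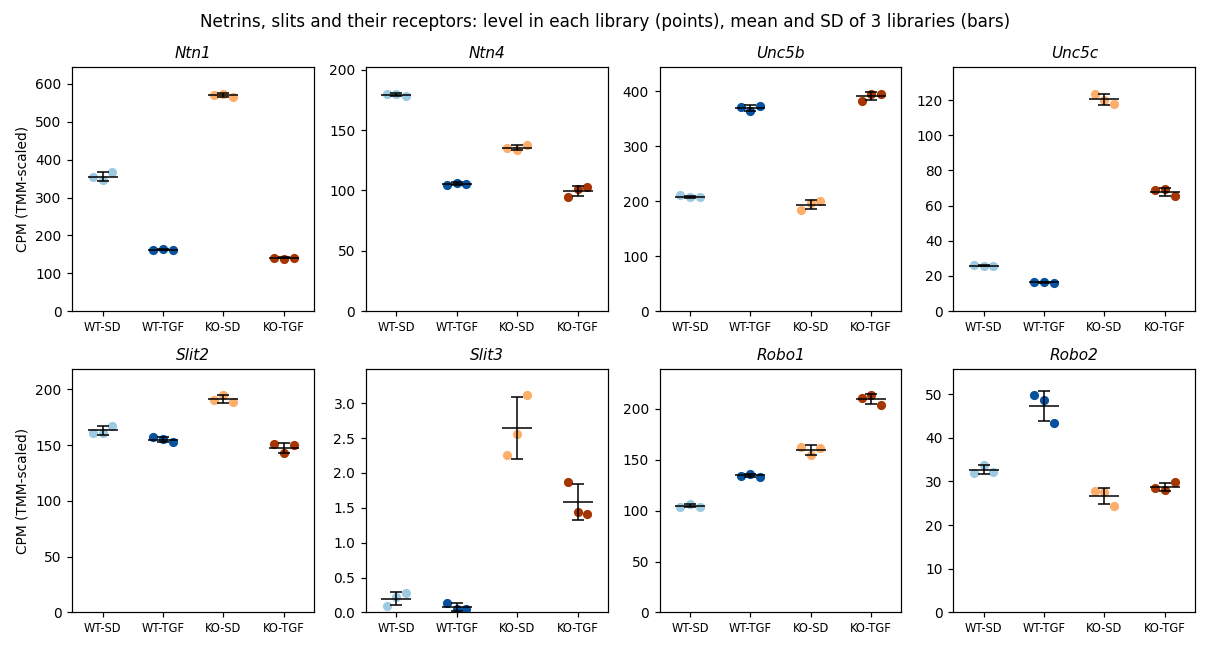
CPM of netrins, slits and their receptors in each of the 12 libraries (points), with the mean and SD of 3 libraries (bars) and a separate axis from 0 for each gene. Unc5c and Slit3 are above WT in every KO library, and Ntn1 is highest in KO-SD (565 to 575 CPM) and lowest in KO-TGF (139 to 141 CPM).

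Ephrins are membrane-tethered ligands, those of class A by a lipid anchor and those of class B by a transmembrane segment. All 5 tested class A ephrins were called lower with TGF-β in KO, beside 39.1% of all genes. In WT 3 of them were called lower (Efna1, Efna2 and Efna5), beside 36.4%. Efna5 fell most, from 59.4 to 62.8 CPM in WT-SD to 25.6 to 29.5 in WT-TGF (-1.13 ± 0.0456) and from 57 to 57.3 in KO-SD to 27.1 to 28.4 in KO-TGF (-1.03 ± 0.0472), and the TGF groups overlapped between genotypes (0.01 ± 0.0531). Efna3 had 16.5 to 17.6 CPM in WT-SD and 16 to 17 in WT-TGF (-0.04 ± 0.075, not called), whereas it fell from 16.7 to 21.4 CPM in KO-SD to 10.9 to 12.4 in KO-TGF (-0.69 ± 0.0813, interaction -0.65 ± 0.111). With scaling by library size alone Efna3 was called lower in WT too (-0.20, adjusted p = 0.0201). Efna1, Efna3 and Efna4 lie within positions 89271730 to 89338028 of chromosome 3, and Efna1 was lower in KO in SD (-0.55 ± 0.0847) while Efna4 was higher (0.31 ± 0.0696). Efnb1 was lower in KO, at 166 to 173 CPM in WT-SD against 107 to 109 in KO-SD (-0.66 ± 0.0303), and fell with TGF-β in both genotypes (-0.60 ± 0.0301 and -0.56 ± 0.0334).

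Efnb2, the most abundant ephrin and a marker of arterial endothelium elsewhere, had 354, 354 and 351 CPM in WT-SD and 383, 378 and 374 in WT-TGF, and 360, 340 and 345 in KO-SD and 512, 511 and 514 in KO-TGF. The SD groups overlapped (-0.02 ± 0.0245, edgeR adjusted p = 0.539, and -0.09, adjusted p = 0.00116, with scaling by library size alone), and KO-TGF stood above all other groups. It rose by 0.10 ± 0.0244 in WT, which turned to -0.06 with scaling by library size alone, and by 0.56 ± 0.0243 in KO. The interaction was 0.45 ± 0.0344 (edgeR adjusted p = 8.23e-12).

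Of the 6 tested Eph receptors, 2 rose and 4 fell with TGF-β in WT, beside 36% and 36.4% of all genes. In KO 1 rose and 5 fell, beside 34.9% and 39.1%. Ephb6, a receptor without kinase activity, had 38.1, 36.5 and 33.8 CPM in WT-SD, 27, 30.9 and 28.7 in WT-TGF, 9.1, 10.7 and 10.5 in KO-SD and 5.04, 5.13 and 4.26 in KO-TGF. KO cells held 0.279 of the WT level in SD and 0.167 in TGF-β, without overlap (-1.84 ± 0.0709, edgeR adjusted p = 5.92e-20, and -2.59 ± 0.0893, edgeR adjusted p = 4.37e-21). Epha7 differed the other way, with 106, 106 and 99.7 CPM in WT-SD against 253, 236 and 244 in KO-SD (1.23 ± 0.0329), and 70.8, 69 and 65.3 in WT-TGF against 114, 112 and 110 in KO-TGF (0.71 ± 0.0372). It fell with TGF-β by 0.60 in WT and by 1.13 in KO.

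Epha4, which binds both ephrin classes, had 368, 377 and 381 CPM in WT-SD and 169, 170 and 170 in WT-TGF, and 271, 264 and 267 in KO-SD and 183, 173 and 180 in KO-TGF. It was lower in KO before treatment (-0.49 ± 0.0254), and TGF-β brought the genotypes to nearly the same level. Its response was -1.14 ± 0.0263 in WT and -0.58 ± 0.0268 in KO, with an interaction of 0.56 ± 0.0375 (edgeR adjusted p = 4.4e-13). Epha2 rose in both genotypes (0.66 ± 0.0373 and 0.32 ± 0.0367), from 70.2 to 76.5 CPM in WT-SD and 91.9 to 101 in KO-SD to 115 to 118 in WT-TGF and 117 to 122 in KO-TGF, where the genotypes overlapped. Ephb3 rose in WT (0.18 ± 0.0515), which scaling by library size alone brought to 0.02 (adjusted p = 0.724), and fell in KO (-0.38 ± 0.0492). Ephb4, the usual receptor of Efnb2, fell by 0.18 in WT and by 0.23 in KO.

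The 26 members that were not tested comprised 3 with no count in any library (Epha5, Epha8 and Robo4), 10 with a highest count of 1 to 10, and 13 with more. When all 18565 genes with counts were fitted, 4 of the 26 rose and 5 fell with TGF-β in WT, beside 25.9% and 25.8% of all genes there. In KO, 2 rose and 4 fell, beside 23.8% and 28.5%. KO against WT gave 4 higher and 8 lower in SD, beside 23.4% and 17.9%, and 1 higher and 5 lower in TGF-β, beside 18.7% and 20.3%. Epha3 had 82, 69 and 58 counts in WT-SD and 109, 112 and 86 in WT-TGF, against 26, 21 and 20 in KO-SD and 19, 17 and 26 in KO-TGF. It was lower in KO in both conditions (-1.55 ± 0.199 and -2.11 ± 0.187 in that fit). Ntn3 had 59, 53 and 45 counts in WT-SD and 23, 24 and 23 in WT-TGF, against 35, 40 and 42 in KO-SD and 4, 9 and 8 in KO-TGF, so that all 3 netrins with more than 10 counts were lower with TGF-β. Sema4a had 13 to 17 counts in WT-SD and 14 to 19 in WT-TGF, against 1 to 4 in KO-SD and 2 to 4 in KO-TGF. These 3 genes were named after their values were seen.

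A list of 75 further counted genes of the same pathways (co-receptors, other ligands, GTPases and their regulators, kinases and cytoskeletal effectors) had 62 tested genes. With TGF-β, 31 rose and 22 fell in WT, beside 36% and 36.4% of all genes, and 34 rose and 20 fell in KO, beside 34.9% and 39.1%. Between genotypes, 33 were higher and 15 lower in KO in SD, beside 30.9% and 25.2%, and 33 and 13 in TGF-β, beside 27.2% and 27.8%. The median of the list was 0.11 and 0.17 for the TGF-β responses in WT and KO. Flrt2, an Unc5 ligand with leucine-rich repeats, rose from 319 to 331 CPM in WT-SD to 955 to 1046 in WT-TGF (1.61 ± 0.0322). It had 435.7 to 486.8 CPM in KO-SD and 906.5 to 924.5 in KO-TGF. Flrt1 of the same family fell from 9.69 to 10.2 CPM in WT-SD to 2.27 to 2.57 in WT-TGF (-2.05 ± 0.136). It had 7.29 to 8.83 CPM in KO-SD and 0.536 to 1.44 in KO-TGF. Flrt3, the remaining gene of that family, was lower in KO-TGF (4.02 to 5.46 CPM) than in WT-TGF (11.8 to 13.8 CPM, -1.39 ± 0.105). It had 8.76 to 9.51 CPM in WT-SD and 5.28 to 6.1 in KO-SD. Arhgef19, a guanine nucleotide exchange factor, rose from 11.5 to 13.1 CPM in WT-SD to 32.1 to 33.3 in WT-TGF (1.41 ± 0.0687), and from 18.7 to 22.2 CPM in KO-SD to 35.7 to 41.6 in KO-TGF (0.91 ± 0.0623). Vav3, an exchange factor that acts below Eph receptors, rose from 1.79 to 1.98 CPM in KO-SD to 7.46 to 8.46 in KO-TGF (2.1 ± 0.139). It had 1.68 to 1.73 CPM in WT-SD and 3.03 to 4.07 in WT-TGF. Crmp1, a collapsin response mediator that acts on the cytoskeleton below semaphorin receptors, had 1.91 to 2.09 CPM in WT-SD, 4.01 to 4.82 in WT-TGF, 2.16 to 2.75 in KO-SD and 10.6 to 12.1 in KO-TGF, and was higher in KO-TGF than in WT-TGF (1.33 ± 0.107). L1cam, an adhesion molecule that associates with neuropilin 1, had 17.4 to 18.8 CPM in WT-SD, 5.01 to 6.24 in WT-TGF, 8.59 to 9.31 in KO-SD and 0.963 to 1.16 in KO-TGF, and was lower in KO in SD (-1.01 ± 0.0777) and TGF-β (-2.39 ± 0.162). Srgap1, a GTPase-activating protein of the slit and robo pathway, was lower in KO in both conditions, at 205 to 207 CPM in WT-SD against 79.1 to 91.5 in KO-SD (-1.26 ± 0.0352), and 202 to 212 in WT-TGF against 97.5 to 99.8 in KO-TGF (-1.08 ± 0.0353). Ablim1, an actin-binding protein related to the netrin effectors of worms, fell with TGF-β in both genotypes. It had 59.7 to 65.8 CPM in WT-SD and 16.9 to 19.7 in WT-TGF (-1.75 ± 0.0527). In KO it fell from 106 to 108 CPM in SD to 10.9 to 12.8 in TGF-β (-3.17 ± 0.0557). KO was above WT in SD (0.76 ± 0.0405) and below WT in TGF-β (-0.66 ± 0.0739).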

How the data were processed

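RNA-seq libraries of MMC were prepared by the authors from mRNA, and single-end reads were aligned to mm10 with TopHat and counted with HTSeq-count by strand on RefSeq genes. The authors deposited these raw counts, without normalization or filter, and reads outside genes (10.3% to 15.4% of a library) were left out here. Groups and replicate numbers follow the sample titles. TMM-normalized counts of 11529 genes were tested in R 4.3.3 by the quasi-likelihood test of edgeR 4.0.16, adjusted by Benjamini-Hochberg, in one fit of 12 libraries with one mean per group. RPKM for the filter used unscaled library sizes and the union of exons in GENCODE (24719 genes with a length), and printed CPM and RPKM are TMM-scaled. Calls had FDR <5%, with fold change >2 where stated. Members under the filter were read from a fit of 18565 genes. The script was tested on simulated counts. Named members were the most abundant of each family, the 8 largest called changes of each comparison without overlap and at 2 CPM or more, and by the same limits the 2 largest rises and falls of the pathway list. Every other tested member that is named follows from the full counts. Members, lists and tests were chosen with earlier results of these data known. Alternatives were library size alone, DESeq2 1.42.0, the likelihood ratio test, no filter or one of CPM >1 in 3 or more libraries, just the groups compared, a replicate block and each library left out. Coordinates are RefSeq GRCm38.p6, matched by symbol for 67 members.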

Additional observations from a re-analysis of the deposited data

Results flagged for a closer look

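The TGF-β response differed between the genotypes for 26 guidance genes by the interaction term of the fit (edgeR, FDR <5%), given here as the log2 response in KO minus that in WT. Of all 11529 genes tested, 16.6% had a called negative difference and 8.67% a called positive one. Among the guidance genes the difference was negative for 18, which were Sema3g (-2.81), Sema3d (-1.73), Sema3f (-1.22), Ntn1 (-0.89), Ephb6 (-0.74), Efna3 (-0.65), Plxna3 (-0.63), Ephb3 (-0.56), Epha7 (-0.53), Sema3c (-0.52), Sema3b (-0.45), Plxna2 (-0.42), Robo2 (-0.42), Epha2 (-0.34), Sema3a (-0.33), Slit2 (-0.30), Efna4 (-0.29) and Sema3e (-0.27). It was positive for 8 genes, which were Plxna4 (0.69), Epha4 (0.56), Sema7a (0.51), Efnb2 (0.45), Sema5a (0.41), Ntn4 (0.33), Plxnb1 (0.20) and Unc5b (0.19). The value of Efna4 was no longer called in DESeq2 (-0.26, adjusted p = 0.158) or in 8 of the 12 fits that left out 1 library (adjusted p 0.0639 to 0.202), which were those without WT-SD replicate 2 or 3, WT-TGF replicate 2 or 3, KO-SD replicate 2 or any KO-TGF replicate. That of Sema3b was no longer called in DESeq2 (adjusted p = 0.0678) or without KO-TGF replicate 1 (0.0677) or 2 (0.0561).

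The signs have different meanings for genes that rose and genes that fell. Sema3g and Ephb3 changed direction between the genotypes. Epha4, Ntn4, Plxnb1 and Sema5a, with positive values, fell less in KO or were not called there, and Efnb2, Plxna4, Sema7a and Unc5b rose more.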

How the results depend on the processing

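The counts of members called were within 1.5 times under every alternative apart from those of the filter on low expression. Without a filter, 4 members rose and 11 fell over 2-fold with TGF-β in WT, beside 753 and 1278 of all 18565 genes. In SD 23 members were lower in KO, beside 3323 genes, and over 2-fold 6 were higher and 7 lower, beside 600 and 1007. In TGF-β 2 members were higher and 11 lower in KO over 2-fold, beside 300 and 1172 genes. These fits test more members. With CPM >1 in at least 3 libraries, 4 members were higher in KO over 2-fold in SD, beside 471 of all 12384 genes. In TGF-β 2 members were higher and 10 lower over 2-fold, beside 217 and 814 genes. Leaving out each library gave 13 and 24 to 26 members higher and lower in the WT response, 10 to 11 and 29 to 30 in the KO response, 13 to 18 and 14 to 16 between genotypes in SD, 10 to 12 and 15 to 19 in TGF-β, and 8 to 9 and 16 to 19 for the interaction.

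Direction and call held under every alternative for 34 of 38 called members in the WT response, 38 of 39 in the KO response, 26 of 30 between genotypes in SD, 23 of 31 in TGF-β and 24 of 26 for the interaction. Library size alone reversed Efnb2 in the WT response (-0.06), Robo2 in the KO response (-0.09) and Nrp1 in the WT response (-0.12). It also reversed Sema5a in SD (-0.05) and, between genotypes in TGF-β, Efna5 (-0.11), Epha2 (-0.08), Ephb3 (-0.06), Epha4 (-0.05), Unc5b (-0.04) and Plxnb2 (-0.02). The shift of all genes under that scaling is of this size. Efnb2 in SD turned to 0.01 without a filter. Plxnb1 in the KO response, not called otherwise, was called lower with library size alone (-0.26) and without KO-SD replicate 1 (-0.11), and Sema4f in SD with library size alone (-0.54) and without KO-SD replicate 3 (-0.66). Values that were not called also turned when a library was left out. Efna5 between genotypes in TGF-β ran from -0.04 (without WT-TGF replicate 1) to 0.06 when each library was left out, and Plxnb1 in the KO response came to 0.01 without KO-SD replicate 3. Sema5a in SD ran from -0.05 (without KO-SD replicate 3) to 0.08, with -0.01 without WT-SD replicate 1. The interaction of Sema4f ran from -0.14 to 0.16, with 0.01, 0.16, 0.02 and 0.09 without WT-SD replicate 1, KO-SD replicate 3 and KO-TGF replicates 1 and 2.

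Of 18 same-numbered pairs of libraries, 3 deviated together with a correlation over 0.1 (range -0.0598 to 0.184). Pairs with different numbers ran from -0.165 (WT-TGF replicate 2 with KO-SD replicate 1) to 0.117 (WT-SD replicate 2 with KO-SD replicate 1). Whether libraries of the same number shared a batch was not tested. The replicate block gave 16 members higher in KO in SD in place of 15. It changed the call of none of the 205 gene values compared. Those were values called in the fit without a block or named here, and the added call lies outside them. Differences of the 10 members with at most 10 counts in any library were not detectable at this depth unless they were very large.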
